A study of Mus musculus with 30 samples.

Results

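Transcripts of the T-cell receptor beta (Trb) locus were followed in 30 tumors grown from 5 primary fibrosarcoma lines induced with the carcinogen methylcholanthrene (MCA). The genes described are the constant segments Trbc1 and Trbc2 and the joining segments Trbj2-1, Trbj2-2, Trbj2-3, Trbj2-4, Trbj2-5 and Trbj2-7. They were taken by gene symbol and make 8 of 53 Trb segments and 8 of 48440 genes in the count table. They were chosen by their differences in counts between the lines of unlike sensitivity, known from earlier work on these data, so those differences are given as a description. Cd3e, a signalling chain of the T-cell receptor complex, and Trac, the constant segment of the receptor's alpha chain, were set beside them as a measure of T cells.

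A T cell builds its beta chain gene by joining a V, a D and a J segment, and RNA splicing then links the chosen J segment to a constant segment. The locus holds a pair of clusters of this kind, in which the J1 segments precede Trbc1 and the J2 segments precede Trbc2. J segments that have not been rearranged can be transcribed too, as germline transcripts that carry no V segment. The beta chain reaches the surface of a T cell only together with an alpha chain and the CD3 chains.

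MCA-943 gave 4 tumors, MCA-948 gave 8, MCA-969 gave 8, MCA-970 gave 6 and MCA-972 gave 4. Each line came from 1 primary tumor, so that a property of a line was observed in 1 line only, and the tumors of a line were its replicates. MCA-943 and MCA-969 are classed by the study as non-sensitive to NK1.1+ cells, and MCA-948, MCA-970 and MCA-972 as sensitive. The labels give the opposite class to MCA-969 W-1D and W-2D, which were kept with their line. The labelled mouse strain is Ncr1Cre R26DTA for every tumor but those of MCA-943, which carry the label Ncr1Cre, and the labelled background is C57BL/6 throughout. The Ncr1 promoter that drives this Cre is active in NK cells and related innate lymphoid cells, and Cre turns on diphtheria toxin in R26DTA mice. The series design names wild-type and NK-cell-deficient hosts, but the labels do not say which tumor grew in which host. Tumor titles hold a letter, W or a, of unstated meaning, followed by a code of the animal. In all, 12 titles hold W, 17 hold a and 1 holds neither. Age was not given.

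Hematopoietic cells were removed from the tumor suspensions with CD45 Microbeads, and bulk RNA was sequenced. Total gene counts ran from 27745104 to 46537062, and the median tumor had 35039383. Levels are given as counts, or as CPM, counts scaled to the library total with edgeR's TMM scaling, with the SD over tumors. A count of 0 allows up to 3 counts, which was 0.0645 CPM in the deepest and 0.108 CPM in the shallowest library, and such limits cover counting error only. Counts of leukocyte genes remained after the CD45 step. The 8 genes listed for leukocytes summed to between 147 counts, in an MCA-969 tumor, and 3895 counts, in an MCA-943 tumor. Library numbers fall into 3 runs. Tumors of MCA-972 (4) shared the first run with MCA-969 (6), those of MCA-970 (6) shared the second with MCA-948 (2) and MCA-969 (2), and those of MCA-943 (4) shared the third with MCA-948 (6). In bulk RNA, fewer cells of a type and less RNA per cell cannot be told apart.

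The J2 cluster is compact. On GRCm38 its 7 segments lie on the + strand within 1103 bp, and the last of them ends 2873 bp before Trbc2. The germline sequences below, read from the reference, show which segments the counts fell on and that each could be told from the others. Capitals mark the motif TT, any base, GG, any 4 bases, GG, searched on both strands, which in a J segment encodes a conserved phenylalanine followed by glycine.
Trbj2-1 (chr6:41542754-41542803, +): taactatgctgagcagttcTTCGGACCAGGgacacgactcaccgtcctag
Trbj2-2 (chr6:41542957-41543007, +): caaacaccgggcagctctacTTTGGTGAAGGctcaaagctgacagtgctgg
Trbj2-3 (chr6:41543223-41543271, +): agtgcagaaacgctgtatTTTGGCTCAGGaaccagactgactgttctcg
Trbj2-4 (chr6:41543362-41543410, +): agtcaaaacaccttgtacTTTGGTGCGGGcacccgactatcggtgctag
Trbj2-5 (chr6:41543453-41543501, +): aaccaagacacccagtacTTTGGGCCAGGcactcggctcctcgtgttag
Trbj2-6 (chr6:41543598-41543645, +): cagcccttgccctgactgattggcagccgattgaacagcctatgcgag
Trbj2-7 (chr6:41543810-41543856, +): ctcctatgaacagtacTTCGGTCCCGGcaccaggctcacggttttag
On the + strand, the motif stood in 6 of 7 J2 segments and in 5 of 7 J1 segments. On the minus strand, 0 of 7 J2 segments held it. Among 2926723 windows of 50 bases on chromosome 6, 0.935% held it on the + strand and 1.85% on either strand. Trbj2-6, annotated as a pseudogene, lacks the motif and is not among the 8 genes. The 6 J2 segments followed here matched each other at 51.0% to 69.4% of aligned positions.

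The constant segments are far more alike than the J segments. Trbc1 (chr6:41538218-41539881, +) and Trbc2 (chr6:41546730-41548352, +) shared 495 of 518 coding bases. Coding exon 1 differed at 1 of its 375 bases, and 259 bases of it ran without a difference. Coding exon 3, shown here because it holds most of the coding bases at which the segments differ, differed at 15 of 107 bases, in capitals. Untranslated bases were not compared.
Trbc1 exon 3 (chr6:41539229-41539335, +): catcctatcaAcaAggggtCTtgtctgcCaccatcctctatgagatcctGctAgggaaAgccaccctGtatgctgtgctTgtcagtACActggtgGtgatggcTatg
Trbc2 exon 3 (chr6:41547772-41547878, +): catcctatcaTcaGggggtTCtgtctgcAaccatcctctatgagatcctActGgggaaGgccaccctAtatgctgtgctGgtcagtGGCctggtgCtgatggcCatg
Reads that fall wholly in the shared stretch of exon 1 match either gene, and reads spliced from a J segment to a constant segment overlap a pair of annotated genes. How the counting treated such reads is not given in the sources used here, so counts on J and constant segments may understate the locus.

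Trbc2 was the abundant transcript of the locus, and its level fell in steps over the lines. In the non-sensitive line MCA-943, Trbc2 had 722 counts in W-2G, 849 in a-1D, 588 in a-1G and 791 in a-R. In the other non-sensitive line, MCA-969, the lowest tumor had 312 counts, the median was 561 and the highest tumor had 841. These are the highest counts of the series, and the tumors of MCA-943 and MCA-969 overlapped. In the sensitive line MCA-972, Trbc2 had 194 counts in a-1, 157 in a-1G, 163 in a-R and 250 in 2G. In MCA-970 it had between 5 and 22 counts with a median of 19, and in MCA-948 between 0 and 3 with a median of 1.5. The 3 sensitive lines thus did not overlap with each other, and all of their tumors lay below every tumor of MCA-943 and MCA-969.

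As CPM, Trbc2 was at 21.8 ± 2.15 (SD, n = 4) in MCA-943 and 15.6 ± 5.60 (n = 8) in MCA-969. It was at 5.05 ± 1.15 (n = 4) in MCA-972, 0.457 ± 0.179 (n = 6) in MCA-970 and 0.0377 ± 0.0289 (n = 8) in MCA-948. The order of the levels was therefore MCA-943, MCA-969, MCA-972, MCA-970 and MCA-948. The first neighbours in this order did not differ past the thresholds, which were an adjusted p under 0.05 together with a log2 fold change of 1 or more in either direction. In edgeR's quasi-likelihood test, Trbc2 differed by a log2 fold change of 0.48 (SE 0.23, adjusted p = 0.0752) for MCA-943 minus MCA-969. DESeq2 gave an adjusted p of 0.0092 for this pair, at a fold change under the threshold.

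**Figure D1:**
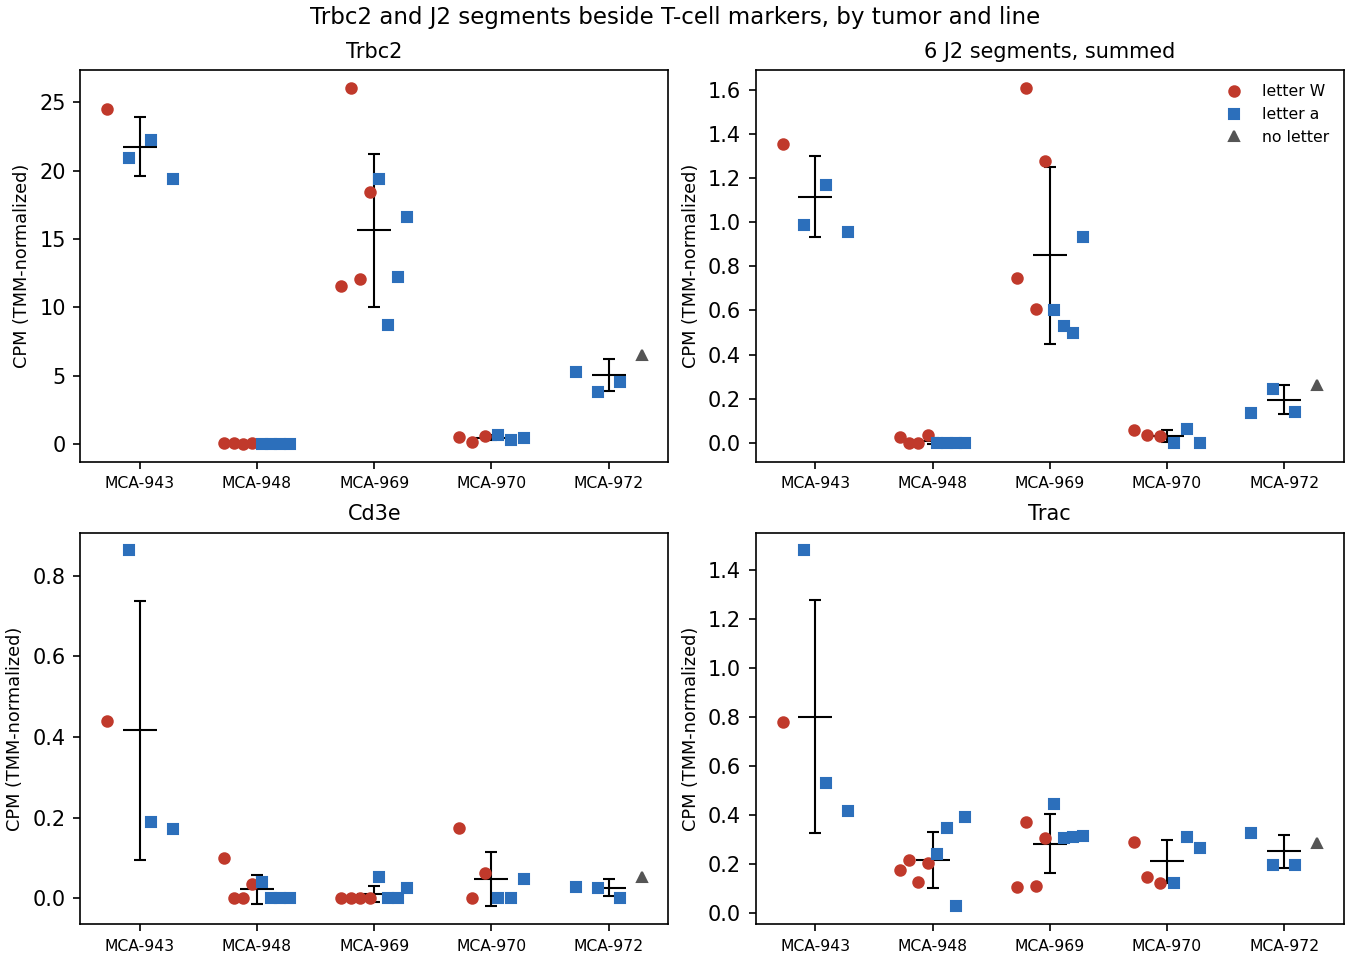
Levels of Trbc2, of the 6 J2 segments summed, of Cd3e and of Trac in each of the 30 tumors, as CPM with TMM scaling on the vertical axis, by line on the horizontal axis, with marker shapes for the title letter and bars for mean ± SD. Trbc2 and the J2 segments were high in MCA-943 and MCA-969, lower in MCA-972 and near 0 in MCA-970 and MCA-948, whereas Cd3e and Trac stood out in MCA-943 but not in MCA-969.

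The sensitive lines differed among themselves, in comparisons that did not serve to choose the genes. Trbc2 was lower in MCA-948 than in MCA-970 by a log2 fold change of -3.53 (SE 0.42, adjusted p = 1.86e-08, edgeR). It was lower in MCA-948 than in MCA-972 by -6.97 (SE 0.35, adjusted p = 4.76e-16), and lower in MCA-970 than in MCA-972 by -3.44 (SE 0.29, adjusted p = 1.36e-10). All 3 were called under each alternative that gave a value. On the log2 scale, MCA-972 sat closer to the non-sensitive lines than to the other sensitive lines in Trbc2. No run held MCA-972 together with MCA-948 or MCA-970, and the part of the run in these differences was not tested beyond a fit with the run as a term. MCA-948 and MCA-970 shared the second run, in which MCA-948 had 0 and 1 counts and MCA-970 had 5 to 22.

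The differences between a non-sensitive and a sensitive line are given as a description only. For MCA-943, the log2 fold change of Trbc2 was 9.07 against MCA-948, 5.54 against MCA-970 and 2.11 against MCA-972. With MCA-969 in its place, the values were 8.60, 5.07 and 1.63. Within the first run, MCA-969 was at 14.6 ± 4.21 CPM (n = 6) and MCA-972 at 5.05 ± 1.15 CPM (n = 4). Within the second run, MCA-969 had 449 and 841 counts against 5 to 22 in MCA-970, and within the third, MCA-943 had 588 to 849 against 0 to 3 in MCA-948. The tumors did not overlap within any of the 3 runs.

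Of the 8 genes, 4 passed the filter on low counts, namely Trbc1, Trbc2, Trbj2-3 and Trbj2-7. Trbc2, Trbj2-3 and Trbj2-7 were called higher in all 6 pairings of a non-sensitive line with another that is sensitive, which is the pattern behind their choice. Over all 16862 genes tested, 0.652% were called higher in all 6. Trbj2-3 and Trbj2-7 also passed the filter only through MCA-943 and MCA-969, where they are high. Their calls in the 6 pairings are therefore a description and no test of the members. None of the 8 was called lower in all 6, as were 0.225% of genes. Taken singly, the comparisons called many genes. The share of genes called was 29.0% for MCA-943 against MCA-948, 27.3% against MCA-970 and 25.6% against MCA-972. With MCA-969 in place of MCA-943, these shares came to 20.8%, 21.4% and 20.6%. Among pairs of lines of like sensitivity, it was 27.0% for MCA-943 against MCA-969, 29.4% for MCA-948 against MCA-970, 26.8% for MCA-948 against MCA-972 and 17.6% for MCA-970 against MCA-972.

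The J2 joining segments followed Trbc2 at lower counts. Summed over the 6 segments, MCA-943 W-2G had 40 counts, a-1D 40, a-1G 31 and a-R 39. MCA-969 tumors had 19 to 52 counts with a median of 26, and the MCA-972 tumors had 5, 10, 5 and 10. MCA-970 tumors had 0 to 2 counts and MCA-948 tumors 0 or 1. The summed level was 1.12 ± 0.185 CPM (n = 4) in MCA-943, 0.851 ± 0.401 (n = 8) in MCA-969 and 0.195 ± 0.0666 (n = 4) in MCA-972. As with Trbc2, MCA-943 and MCA-969 overlapped, MCA-972 lay below both, and the remaining lines were at or near 0.

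Trbj2-3 was the most counted segment, with 18, 19, 16 and 20 counts in the MCA-943 tumors W-2G, a-1D, a-1G and a-R. In MCA-969 it ranged from 5 to 25 counts, and in MCA-972 from 0 to 5. All 8 MCA-948 tumors together gave 1 count and all 6 MCA-970 tumors 1 count. Trbj2-7, the segment nearest to Trbc2, had 14, 12, 9 and 13 counts in the same MCA-943 tumors. It had 6 to 17 counts in MCA-969, 1 to 5 in MCA-972 and 0 in every MCA-948 and MCA-970 tumor. Neither segment differed past the thresholds for MCA-943 minus MCA-969, with a log2 fold change of 0.51 for Trbj2-3 (adjusted p = 0.268, edgeR) and 0.37 for Trbj2-7 (adjusted p = 0.360).

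Against MCA-972, both segments were called lower in the other sensitive lines. For Trbj2-7 the adjusted p was 8.88e-05 for MCA-948 minus MCA-972 and 0.000556 for MCA-970 minus MCA-972 (edgeR). Set against a floor of 3 counts over the group, the 10 counts of Trbj2-7 in MCA-972 were 6.33-fold higher than in MCA-948 and 4.48-fold higher than in MCA-970. No counting error was put on the 10 counts, so these are not lower bounds. For Trbj2-3 the adjusted p was 0.00261 against MCA-948 and 0.0144 against MCA-970, and the second call was lost without the tumor MCA-972 2G (log2 fold change -2.18, adjusted p = 0.102). The ratio of Trbj2-3 in MCA-972 to MCA-970 was 12.1, with a 95% counting interval of 1.68 to 530 from 9 and 1 counts.

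The remaining J2 segments did not pass the filter. Trbj2-4 gave 21 counts over the MCA-943 tumors, 37 over MCA-969, 10 over MCA-972, 2 over MCA-970 and 0 over MCA-948. Trbj2-1 gave 3 counts in MCA-943, 13 in MCA-969, 0 in MCA-972, 3 in MCA-970 and 1 in MCA-948, an order unlike that of Trbc2, and Trbj2-2 and Trbj2-5 gave 2 and 3 counts in MCA-943 and 3 each in MCA-969. Over the tumors of MCA-943, MCA-969 and MCA-972 together, 39.2% of the counts on the 7 J2 segments fell on Trbj2-3 and 28.4% on Trbj2-7. Trbj2-4 took 13.9% and the pseudogene Trbj2-6 took 12.9%. MCA-943 and MCA-969 split their counts in the same order down to Trbj2-7, with 43.7% and 37.8% on Trbj2-3 and 28.7% and 27.8% on Trbj2-7.

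**Figure D2:**
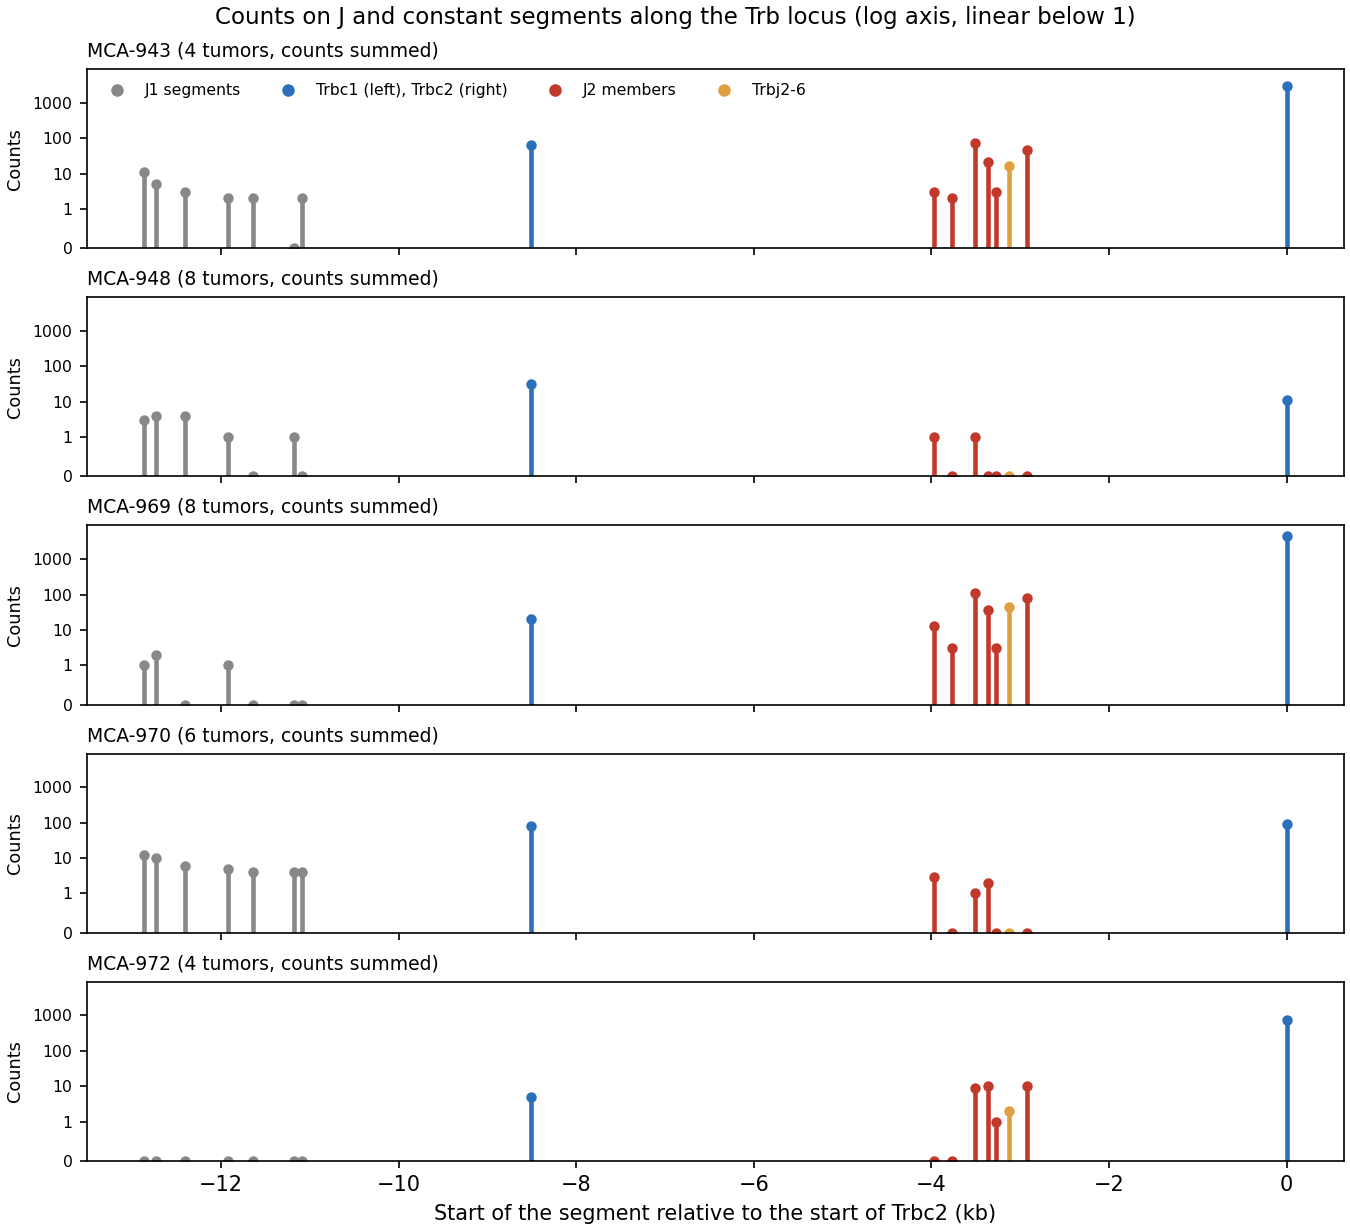
Counts summed over the tumors of each line (vertical axis, log scale that is linear below 1) on the J1 segments, Trbc1, the J2 segments and Trbc2, placed by distance to the start of Trbc2 in kb (horizontal axis). MCA-943, MCA-969 and MCA-972 had counts on most J2 segments and most on Trbc2, with Trbj2-3 at 73, 110 and 9 counts and Trbc2 at 2950, 4593 and 764.

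The share of the 6 J2 segments in the J2 and Trbc2 counts was taken in the 3 lines with enough counts. It was 4.86% ± 0.331 (n = 4) in MCA-943, with tumors between 4.50% and 5.25%. It was 5.15% ± 1.18 (n = 8) in MCA-969, with tumors between 3.01% and 6.48%, and 3.83% ± 1.54 (n = 4) in MCA-972, with tumors between 2.51% and 5.99%. MCA-943 and MCA-969 differed by -0.281 percentage points (two-sided exact permutation test, p = 0.642). Since J segments are short, levels were also set per kb of annotated exon. Trbc2 was 8.30 times as high as the summed J2 segments in CPM per kb in MCA-943, 7.83 times in MCA-969 and 11.02 times in MCA-972.

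V segments did not accompany the J2 and Trbc2 counts in proportion. The 35 annotated V segments gave 34 counts over the MCA-943 tumors, 7 over MCA-969, 8 over MCA-972, 4 over MCA-970 and 2 over MCA-948. Single tumors held most of these, with 21 counts in MCA-943 a-1D against 2 to 6 in its other tumors, 5 in MCA-969 a-2D against 0 or 1, and 6 in MCA-972 2G against 0 to 2. MCA-969, with 4593 counts on Trbc2, therefore had 7 counts on V segments in 8 tumors. The D segments had at most 2 counts in any line. How reads over a rearranged V, D and J junction were aligned and counted was not tested.

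T-cell markers were higher in MCA-943 than in MCA-969, lines that overlapped in Trbc2. MCA-943 alone carries the strain label Ncr1Cre, and it shared no run with MCA-969. In every comparison of this pair, line, strain label and run therefore cannot be told apart. Cd3e had 13, 35, 5 and 7 counts in the MCA-943 tumors W-2G, a-1D, a-1G and a-R. In MCA-969 it had 0 counts in 6 of 8 tumors and at most 2. In the sensitive lines it had at most 4 counts in MCA-948, 6 in MCA-970 and 2 in MCA-972. Cd3e, Cd3d and Cd3g together gave 9 counts over the 8 MCA-969 tumors, beside 4593 on Trbc2, against 151 over the 4 MCA-943 tumors. Of these 151, MCA-943 a-1D held 86, and the other tumors of the line held 13 to 31 each. Cd3e did not pass the filter on low counts and was not tested.

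Trac had 23, 60, 14 and 17 counts in the MCA-943 tumors and 4 to 17 in MCA-969, so that they overlapped. Its level was 0.801 ± 0.477 CPM in MCA-943, 0.283 ± 0.119 in MCA-969, 0.215 ± 0.116 in MCA-948, 0.209 ± 0.0889 in MCA-970 and 0.251 ± 0.0667 in MCA-972. Trac was higher in MCA-943 than in MCA-969 by a log2 fold change of 1.50 (SE 0.38, adjusted p = 0.00126, edgeR). MCA-969 did not differ from the sensitive lines in Trac past the thresholds, with 0.40 against MCA-948 (adjusted p = 0.347), 0.41 against MCA-970 (adjusted p = 0.377) and 0.17 against MCA-972 (adjusted p = 0.766). In the same comparisons Trbc2 was higher in MCA-969 by 8.60, 5.07 and 1.63. Per kb, Trbc2 was 36.7 times as high as Trac in MCA-943, 74.7 times in MCA-969, 27.1 times in MCA-972, 2.95 times in MCA-970 and 0.237 times in MCA-948.

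**Figure D3:**
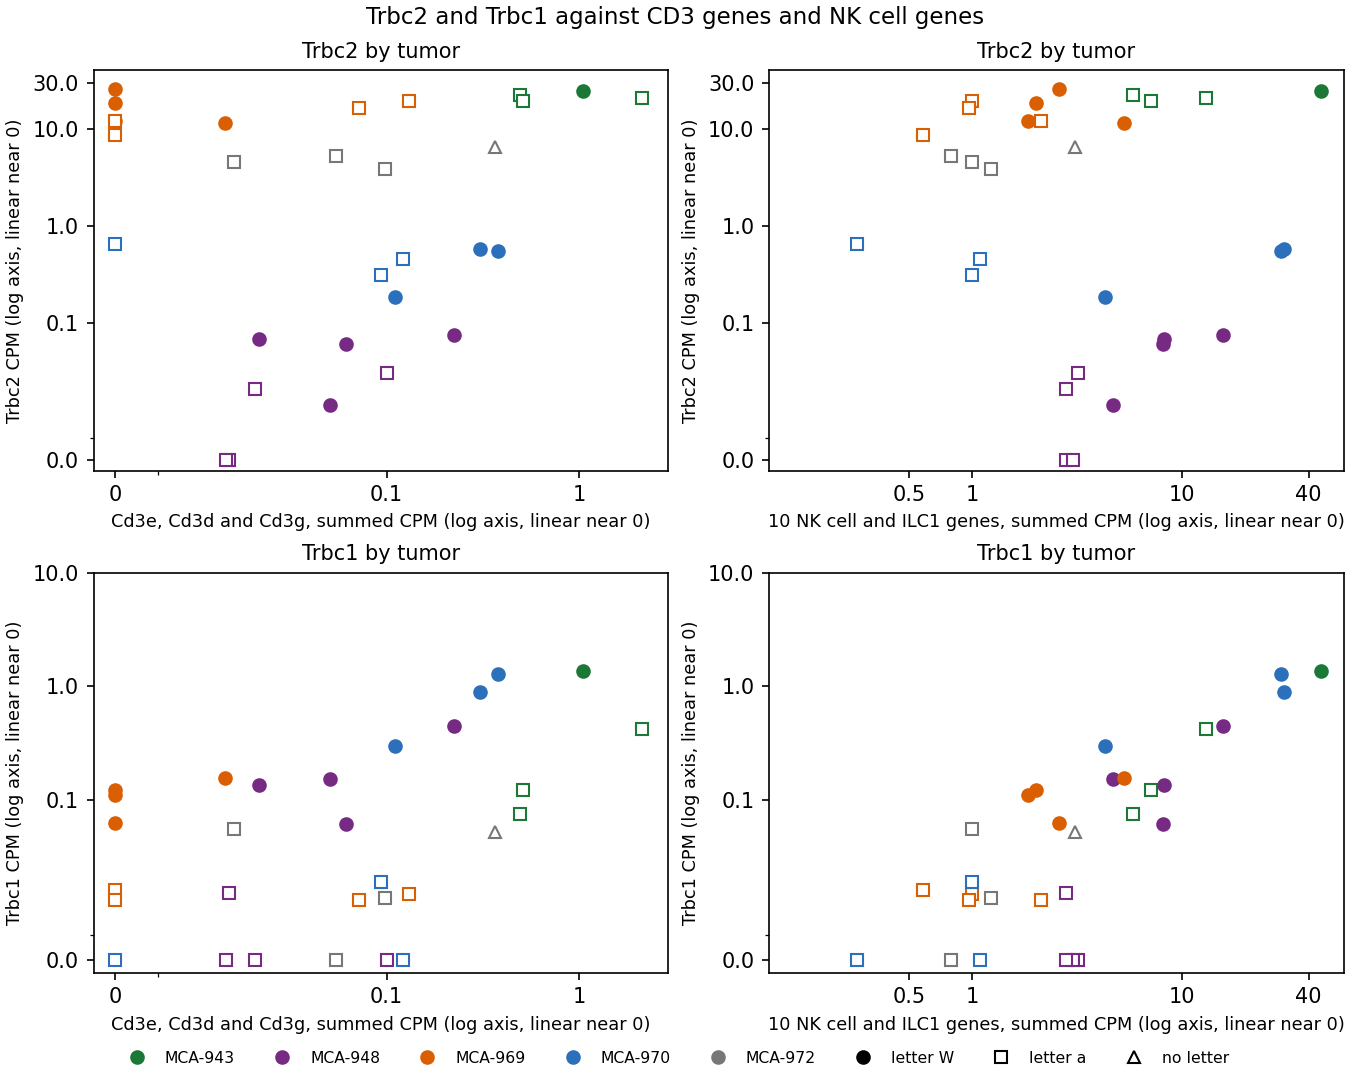
Trbc2 (top) and Trbc1 (bottom) in CPM on the vertical axes against the summed CPM of Cd3e, Cd3d and Cd3g (left) and of 10 NK cell and ILC1 genes (right) on the horizontal axes, 1 point per tumor, coloured by line, with filled circles for W, open squares for a and a triangle for the tumor without a letter. Trbc2 followed the line, with the MCA-969 tumors high at 0 to 5 CD3 counts, while Trbc1 was highest in W tumors with many NK cell counts.

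The other genes of T cells gave the same picture for MCA-969. Of the 9 T-cell genes listed, 4 passed the filter. All 4 were higher in MCA-943 than in MCA-969, among them Cd2, an adhesion receptor, by a log2 fold change of 4.69 and Cd28, a costimulatory receptor, by 2.47. None was higher in MCA-969 than in any sensitive line, 3 were lower than in MCA-970 and 1 lower than in MCA-972. MCA-943 had 4 higher than MCA-948, 1 higher than MCA-970 and 3 higher than MCA-972. Among the sensitive lines, 1 of 4 was lower in MCA-948 than in MCA-970, none was called for MCA-948 against MCA-972, and 2 of 4 were higher in MCA-970 than in MCA-972. Depending on the pair of lines, 17.6% to 29.4% of all genes were called, so that 1 gene of 4 stood near that share. Genes of other leukocytes moved in part with the T-cell genes. For MCA-943 minus MCA-969, 8 of 8 leukocyte genes (median log2 fold change 2.96), 10 of 10 NK cell and ILC1 genes (3.60) and 3 of 4 tested B-cell genes (3.63) were higher. Of 10 myeloid genes, 2 were higher (1.36), under the 27.0% of all genes called for this pair. For MCA-969 minus MCA-970, 8 of 8 leukocyte genes, 9 of 10 NK cell and ILC1 genes and 8 of 10 myeloid genes were lower. Of the 4 tested B-cell genes, 3 were lower and 1 higher. The part of other leukocytes in the differences of the T-cell genes was not tested.

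Genes of the T-cell receptor complex and its signalling were counted next. Of 23 listed, 13 passed the filter. None of them was called higher, or called lower, in all 6 pairings of unlike sensitivity, and with 0.652% and 0.225% of all genes so called, a list of this size can show little. For MCA-943 minus MCA-969, 8 were higher and 1 lower (27.0% of all genes called), with a median log2 fold change of 1.83 against -0.04 over all genes. For MCA-969 minus MCA-970, none was higher and 7 were lower (21.4% of all genes called), with a median of -1.51 against 0.03 over all genes. Against MCA-948, where 20.8% of all genes were called, MCA-969 had 2 higher and 1 lower. Against MCA-972, where 20.6% were called, MCA-969 had 2 higher and 4 lower. In MCA-943, 11 were higher and 1 lower against MCA-948 (29.0% of all genes called). With none lower, 2 were higher in MCA-943 against MCA-970 (27.3%) and 6 against MCA-972 (25.6%). The counts for MCA-969 against MCA-948 and for MCA-943 against MCA-970 were thus near or under the share over all genes. Of 13 transcription factors and recombination genes of the T lineage, 9 passed the filter and 0 were called higher, or called lower, in all 6 pairings, beside the same background.

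Within a line, Trbc2 was set against the T-cell markers over tumors. In MCA-969 (n = 8), Pearson's r was 0.513 with Trac (exact permutation p = 0.209, adjusted over 6 relations 0.627), Spearman's rho was 0.714 (exact permutation p = 0.0576), and r was 0.553 without the 2 tumors farthest from the median of Trac. With Cd3e it was 0.356 (exact permutation p = 0.429, adjusted 0.638) and rho 0.405 (p = 0.357), and the 6 tumors left after the same step all had 0 counts of Cd3e. In MCA-948 (n = 8), r with Cd3e was 0.644 (exact permutation p = 0.0714, adjusted 0.429), rho 0.741 (p = 0.0506), and r without the 2 tumors 0.566. With Trac it was 0.277 (exact permutation p = 0.531, adjusted 0.638), rho was 0.0 (p = 1.0), and r without the 2 tumors was -0.491. In MCA-970 (n = 6), r with Cd3e was 0.486 (exact permutation p = 0.350, adjusted 0.638), rho 0.334 (p = 0.533), and r without the 2 tumors 0.279. With Trac it was -0.141 (exact permutation p = 0.765, adjusted 0.765), rho was -0.600 (p = 0.242), and r without the 2 tumors was 0.781. None of the 6 relations passed the correction, and those in MCA-948 rest on 0 to 3 counts of Trbc2.

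The only neighbouring gene past the filter had another order over the lines. Of 10 annotated genes within 100 kb that are not Trb segments, 1 passed the filter, Ephb6, a receptor of the ephrin family that begins 57130 bp after Trbc2 ends. It was at 2.85 ± 0.282 CPM in MCA-943, 5.26 ± 1.33 in MCA-969, 6.25 ± 2.18 in MCA-972, 5.83 ± 2.48 in MCA-970 and 0.0316 ± 0.0389 in MCA-948. Ephb6 thus shared with Trbc2 its low level in MCA-948, but not the low level in MCA-970. Prss2, a trypsinogen gene on the other side, had 37 counts over all tumors.

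The genes outside the locus with the most similar levels to Trbc2 over the 30 tumors were Pcdhga6 (Pearson's r of log2 CPM 0.963), Begain (0.961), Nptxr (0.957), Csnk1g2 (0.952) and Enpp1 (0.945). Trbj2-7 reached 0.917, Trbj2-3 0.877, the neighbour Ephb6 0.751, Trac 0.483 and Trbc1 0.102. These values mostly reflect the order of the 5 lines, since tumors of a line share their origin and in part their run. With each line centred on its mean, the highest values were 0.725 for Eif2b5, 0.715 for Wdr36, 0.712 for Oaz1-ps, 0.709 for Idh3a and 0.657 for Hspa8. Trbj2-3 and Trbj2-7 were then at 0.342 each, Trbc1 at 0.204 and Ephb6 at 0.094.

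Trbc1 behaved differently from Trbc2. It had 40 counts in MCA-943 W-2G, 17 in a-1D, 2 in a-1G and 5 in a-R. In MCA-970 it had 44 counts in W-1D, 8 in W-2D and 29 in W-R, but 0, 1 and 0 in the a tumors a-1D, a-2D and a-2G. In MCA-948 the W tumors had 2 to 18 counts and the a tumors 0 or 1. In MCA-969 the W tumors had 2 to 6 counts and the a tumors 1 each. In each of these 4 lines every W tumor lay above every a tumor, and in MCA-972, which has no W tumor, Trbc1 had 0 to 2 counts.

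Between lines, Trbc1 had no common direction against sensitivity. Its log2 fold change for MCA-943 was 2.19 against MCA-948, 0.23 against MCA-970 and 3.75 against MCA-972, and for MCA-969 it was -0.60, -2.55 and 0.96. For MCA-943 minus MCA-969 it was 2.79 (adjusted p = 0.0146, edgeR). Trbc1 was the 1 member of the 4 tested that was called, near the 27.0% of all genes called for this pair. This call was lost without MCA-943 W-2G (1.63, adjusted p = 0.214). Trbc1 was called lower in MCA-948 than in MCA-970 (-1.96, adjusted p = 0.0438), and this call was lost when any of 11 tumors was left out. These were MCA-943 a-1D, MCA-969 a-2D, MCA-972 a-1G, MCA-970 W-1D and W-R, and MCA-948 W-1G, W-2G, a-1G, a-2D, a-2G and a-R, with the value closest to 0 without MCA-970 W-1D (-1.16, adjusted p = 0.263). It was called higher in MCA-970 than in MCA-972 (3.52, adjusted p = 0.0260), and the call was lost without MCA-970 W-1D (2.72, adjusted p = 0.0945), MCA-970 W-R (3.15, adjusted p = 0.0559), MCA-972 a-1 (3.15, adjusted p = 0.0701) or MCA-972 a-1G (3.40, adjusted p = 0.0622). For MCA-948 minus MCA-972 it was 1.56 (adjusted p = 0.342). These comparisons pool tumors of both letters, whose mix differs by line. MCA-970 has 3 W tumors of 6 and MCA-972 none, and in a tumors alone Trbc1 was at 0.0104 ± 0.0179 CPM (n = 3) in MCA-970 and 0.0267 ± 0.0279 CPM (n = 3) in MCA-972, all at 0 to 2 counts. In most alternatives to the fit these 3 calls were not kept.

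The title letter was then compared within the 4 lines that have both letters, over 26 tumors, a contrast that the choice of the genes did not use. Of the 4 members tested, 1 was called, Trbc1, while 0.230% of 16557 genes were called. Trbc1 was higher in W than in a by a log2 fold change of 3.54 (SE 0.47, adjusted p = 9.14e-05, edgeR), and it was called with each of the 26 tumors left out in turn (3.34 to 4.06). Trbc1 was taken up for this contrast after its values were seen, and it passed the filter mainly through W tumors, where it is high. The 1 call among 4 members is therefore a description. With no filter on low counts, Trbc1 was at 3.56 (adjusted p = 1.68e-05, edgeR). Trbc2 was not called, with 0.21 (SE 0.20, adjusted p = 0.939), nor were Trbj2-3, with 0.98 (adjusted p = 0.338), and Trbj2-7, with 0.35 (adjusted p = 0.933). Trac was at -0.43 (adjusted p = 0.844). A difference of the letter effect between lines was called for 0.0181% of genes and for none of the 4 members, with an adjusted p of 0.493 for Trbc1 and 0.872 for Trbc2.

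**Figure D4:**
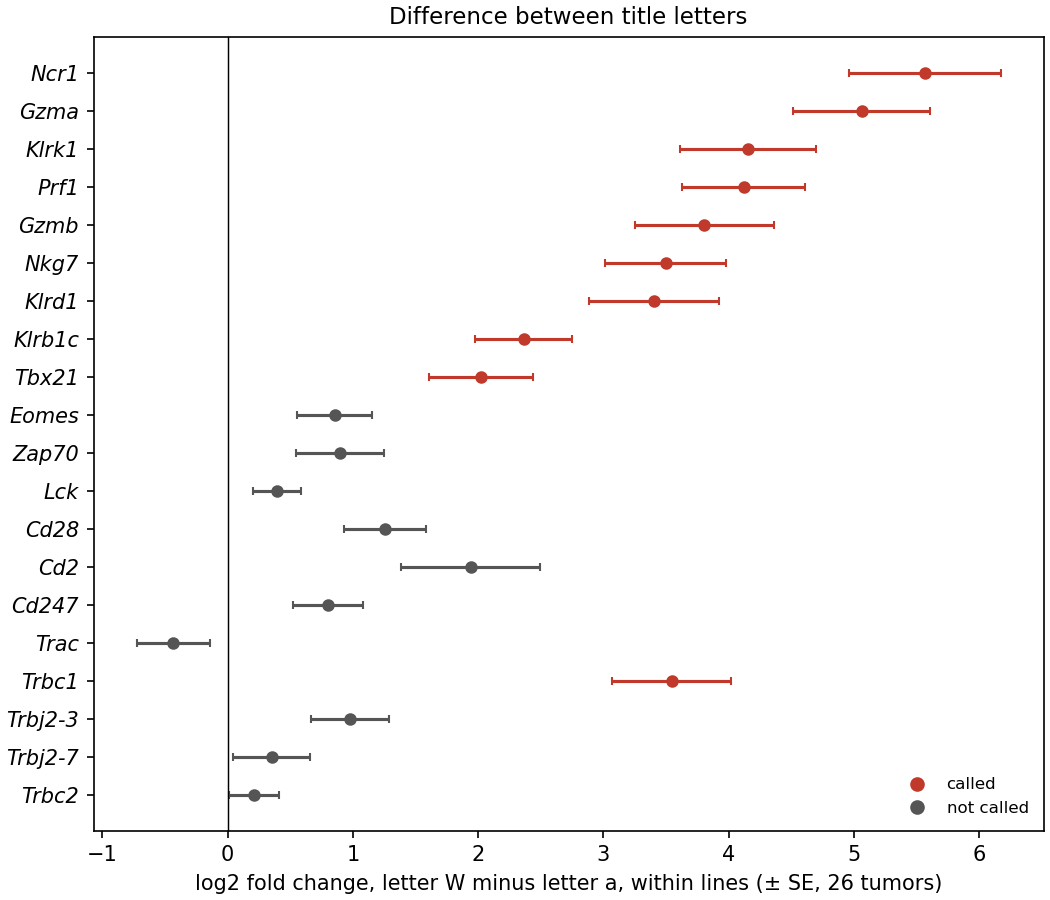
Log2 fold change of W minus a within lines (horizontal axis) with its SE (bars) for Trbc1, Trbc2, Trbj2-3, Trbj2-7, T-cell genes and 10 NK cell and ILC1 genes, over 26 tumors, with called genes in red. Trbc1 at 3.54 stood with the NK cell genes, 9 of 10 of which were called, whereas Trbc2 at 0.21 and Trac at -0.43 did not. The 4 tested T-cell genes, Trac among them, had a median of 1.03, and none was called.

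Genes of NK cells and ILC1 moved with the letter as well. Of 10 listed, 9 were called higher in W, with a median log2 fold change of 3.65 against -0.01 over all genes, and none lower. Ncr1, which encodes the receptor NKp46, was higher by 5.56 (adjusted p = 6.16e-06, edgeR) and Gzma, a granzyme of cytotoxic cells, by 5.06 (adjusted p = 6.16e-06). Eomes, a transcription factor of NK cells, was at 0.86 (adjusted p = 0.442). The 10 genes summed to 1345 counts in MCA-943 W-2G against 154 to 527 in its a tumors, to 184 to 625 against 85 to 159 in MCA-948, to 66 to 204 against 21 to 90 in MCA-969 and to 116 to 1022 against 13 to 45 in MCA-970. The sums overlapped in MCA-969, where Eomes alone had 84 counts in a-2D, and in no other of the 4 lines. Without Eomes, the MCA-969 sums were 40 to 163 in W and 5 to 14 in a tumors and did not overlap. None of the 13 tested genes of the T-cell receptor complex and its signalling was called for the letter, with a median of 0.72. The 4 tested T-cell genes, Trac among them, had a median of 1.03, and none was called. With the mean log2 CPM of the 10 NK cell and ILC1 genes as a covariate, chosen after seeing the data, Trbc1 was at 0.97 (adjusted p = 0.875). Their part in the difference of Trbc1 was not tested further.

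The J1 segments, which lie before Trbc1, were counted in the same tumors as Trbc1. They gave 84 counts over the 12 W tumors, 10 of which had at least 1, and 3 counts over the 17 a tumors, 2 of which, both of MCA-943, had at least 1. By line, the W tumors gave 22 counts in MCA-943, 45 in MCA-970, 13 in MCA-948 and 4 in MCA-969. The 8 MCA-969 tumors thus had 4 counts on J1 segments beside 247 on the 6 J2 segments. In MCA-970 W-1D, Trbc1 had 44 counts beside 19 of Trbc2, whereas in MCA-969 W-2D it had 2 beside 841. With each line centred on its mean, the genes most similar to Trbc1, looked up after its values were seen, were Klrk1 (0.951), Ms4a4b (0.946), Ctsw (0.930), Klri2 (0.930) and Ncr1 (0.928), given as a description over 30 tumors. By the same measure, Trac was at -0.05 and Lck, a listed gene of T-cell receptor signalling, at 0.530. The letters were not centred, so these values include the difference between W and a tumors given above.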

How the data were processed

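The authors used STAR (2.5.3a) with GRCm38 for alignment and featureCounts for counting. The version of featureCounts is 1.5.2 in the submitters' processing notes, and the strand, multi-mapping and overlap options are not given in the sources used here. Per the file headers, duplicates had been taken out by molecular identifier. The deposited table holds raw counts of 48440 genes in 30 tumors, of which GENCODE mouse release 21 names 48058. Counts were scaled with edgeR's TMM, filtered by filterByExpr with the line as group, and fitted by the quasi-likelihood method with robust dispersions. The model of the line held 30 tumors (16862 genes), and that of line and letter 26 (16557 genes), with a biological coefficient of variation of 0.221 in both. Genes were called at a Benjamini-Hochberg adjusted p under 0.05 with a log2 fold change of 1 or more in either direction. P-values of the fits set a difference against the spread between tumors within lines, estimated jointly over the lines of a model. They do not measure the spread between independent lines. Single values were tested by exact permutation.

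The members and lists were chosen with earlier results of these data known. Genes named are the 8 members, Cd3e, Trac, the 5 genes most similar to Trbc2 by Pearson's r over all tumors and the 5 with each line centred, and listed genes. The 5 genes most similar to Trbc1 were named after values were seen. Tested on simulated counts with 200 of 16862 genes changed by 2 (log2), edgeR recovered 172 for MCA-943 minus MCA-969 (5 other calls) and 194 for W minus a (2 other calls). Apart from these genes the simulated lines did not differ, whereas 27.0% of genes were called between the real MCA-943 and MCA-969. How well members with few counts are recovered was not tested. Alternatives were DESeq2, limma-voom, RLE factors, filters, covariates, separate fits and leaving out each tumor. The tools were edgeR 4.0.16, DESeq2 1.42.0 and limma 3.58.1 under R 4.3.3, and scipy 1.17.1, pandas 2.3.3, numpy 2.4.6 and matplotlib 3.10.9 under Python 3.11.15. Other experiments of the study were not analysed here.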

Additional observations from a re-analysis of the deposited data

How the results depend on the processing

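Trbc2 kept its calls among the sensitive lines under every alternative that gave a value, with leave-one-out ranges of -3.76 to -3.35 for MCA-948 minus MCA-970, -7.19 to -6.78 for MCA-948 minus MCA-972 and -3.56 to -3.29 for MCA-970 minus MCA-972. For MCA-943 minus MCA-969, Trbc2 was never called, and its sign turned with the run (-1.18, adjusted p = 0.497) or the level of Cd3e and Trac (-0.13, adjusted p = 0.812) as a covariate; the cause was not tested. With the run, Trbc1 (-3.25) and Trbj2-3 (-1.30) also turned for this pair, and Trbc1 for MCA-948 minus MCA-972 (-4.41). Trbc1 turned for MCA-943 minus MCA-969 with the leukocyte level too (-0.95). Leaving out tumors moved Trbj2-3 for MCA-948 minus MCA-970 between -1.29 and 0.98. W minus a for Trbc2 was -0.079 (adjusted p = 0.965) within MCA-970, and Trbc1 lost its call in 1 of 9 alternatives, with the NK cell level as covariate (0.97, adjusted p = 0.875). It did not pass the filter without MCA-943, within single lines or runs, or at a mean of 1 CPM, which gave no value. The calls of Trbc1 between lines were kept in 3 of 9 alternatives for MCA-948 minus MCA-970, 4 of 9 for MCA-970 minus MCA-972 and 4 of 9 for MCA-943 minus MCA-969. Over pairs of tumors from different lines, with each line centred, same-code pairs had a median r of 0.012 (19 of 62 over 0.1). Different-code pairs had a median of -0.006 (77 of 290 over 0.1), so little pairing by animal code was seen by this measure. With the code as replicate block, Trbc1 was at 3.72 (adjusted p = 1.54e-05) for W minus a, but lost its calls for MCA-948 minus MCA-970 (-1.56, adjusted p = 0.135) and MCA-970 minus MCA-972 (2.56, adjusted p = 0.184), and the block changed no call of Trbc2. The count of 3 members called in all 6 comparisons fell to 1 at a mean of at least 1 CPM, to 1 with only the compared lines fitted and to 0 with the run as covariate, in which lines and runs overlap little. Correlations of Trbc2 with Trac changed sign within MCA-948 (rho 0.0, -0.49 without 2 tumors, leave-one-out -0.448 to 0.648) and MCA-970 (0.78 without 2 tumors, leave-one-out -0.743 to 0.131).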
